A study of Homo sapiens with 24 samples.

Results

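Of the 2615 super-enhancers that were deposited for OCI-Ly7 cells, 367 (14.0%) held the transcription start site (TSS) of at least 2 protein-coding genes. A region was counted when the 5′ ends of 2 or more GENCODE version 44 protein-coding gene records lay between its start and its end on hg38. The 367 regions held the TSS of 783 genes, which is 3.92% of the 19970 annotated genes of this kind on the autosomes and chromosome X. A further 777 regions (29.7%) held 1 such TSS, and 1471 (56.3%) held none.

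OCI-Ly7 is an established line of germinal centre B-cell type diffuse large B-cell lymphoma. The study made isogenic clones of it. For 4 genotypes, 3 histone marks (H3K27ac, H3K4me1, H3K4me3) were profiled by CUT&RUN, with 2 biological replicates per group. In this method a tethered nuclease releases the DNA around an antibody's target. The regions come from H3K27ac in the WT group alone, the non-edited control clones with regard to CREBBP and KMT2D, and both replicates were merged before the regions were scored. The other 22 samples, from 11 groups that include the CREBBP-mutant, KMT2D-knockout and double-mutant clones, were not analysed here. Each region has 1 pooled value with no replicate error, so no difference between regions was tested.

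H3K27ac is an acetyl mark found on active enhancers and active promoters. A super-enhancer is a run of closely spaced enhancer peaks that is treated as 1 unit because its summed mark is very high, and such runs are known for lying near genes that define a cell type. A promoter surrounds the TSS of a gene; where the genes on opposite strands start back to back, they are called a divergent pair, and the short stretch between them can serve both. In germinal centre B cells, super-enhancers are known at genes of the germinal centre programme.

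The bases between the starts of a divergent pair show how close some of these promoters are. Of the 95 divergent pairs within 1 kb in the 367 regions, 10 had starts over 300 bp apart and 3 were not used for sequence; for the other 82 the stretch between the starts, 12 to 296 bases long (median 112.5), was read from hg38. Its median GC content was 67.7%, and the median stretch held 12 CpG. In 17 of the 82 the stretch lay in the record of another gene, and the sequences printed here overlap no GENCODE gene record. They are some of the closest such pairs and pairs of regions that lead by signal or number of TSS. Each is the plus strand of hg38 from 5′ to 3′, with the left gene on the minus strand and the right gene on the plus strand. Capitals mark a match on either strand to 1 of 5 motifs. The GC box was searched as GGGCGG, and the CCAAT box by the letters of its name. The ETS core, bound by factors of the ETS family, was searched as CCGGAAG. The TATA box was searched as TATAAA, and the octamer, the site of POU factors, as ATGCAAAT. Overlapping matches were each counted.
STX10 and IER2 (chr19:13150384-13150410): CTTCCGGtgcacatgcccCCGCCCctt
MRPL27 and EME1 (chr17:50373208-50373219): acttccgctatc
C1orf131 and GNPAT (chr1:231241188-231241206): gcgctgcagggccctgcgc
PPIL3 and NIF3L1 (chr2:200889304-200889326): cagctctcccgctacggggagcc
TBC1D2B and SH2D7 (chr15:78077725-78077807): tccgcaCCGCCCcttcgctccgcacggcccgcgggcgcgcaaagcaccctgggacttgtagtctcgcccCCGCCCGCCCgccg
TECPR1 and BRI3 (chr7:98252233-98252378): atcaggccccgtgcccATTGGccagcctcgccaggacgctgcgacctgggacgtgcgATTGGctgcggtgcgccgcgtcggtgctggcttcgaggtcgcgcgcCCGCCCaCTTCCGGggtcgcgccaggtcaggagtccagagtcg
HAUS8 and MYO9B (chr19:17075626-17075776): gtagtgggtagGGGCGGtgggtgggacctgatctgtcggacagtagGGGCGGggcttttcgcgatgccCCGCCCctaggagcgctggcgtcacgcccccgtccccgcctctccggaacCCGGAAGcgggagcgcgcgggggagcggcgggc
SELENOF and HS2ST1 (chr1:86914425-86914634): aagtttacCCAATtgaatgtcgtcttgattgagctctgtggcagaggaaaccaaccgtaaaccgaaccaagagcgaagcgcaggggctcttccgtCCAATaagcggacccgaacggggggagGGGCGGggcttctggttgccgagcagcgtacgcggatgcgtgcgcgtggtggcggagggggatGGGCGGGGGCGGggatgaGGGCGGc

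Among the 82 stretches, 44 (53.7%) held a GC box, 27 (32.9%) a CCAAT box and 18 (22.0%) an ETS core, and neither a TATA box nor an octamer was found in any. The stretch between STX10 and IER2, only 27 bases long, held both an ETS core and a GC box. The stretch between HAUS8 and MYO9B held 3 GC boxes and 1 ETS core in 151 bases. A match is a description of the letters, and binding was not measured.

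The number of TSS per region fell off steeply above 2. Of the 367 regions, 322 held 2 TSS, 41 held 3 and 4 held 4. The program that stitched the regions can break up those that span several gene starts, and its part in this fall was not tested. Much of the upper end came from annotation: readthrough records, which join neighbouring genes into 1 transcript, made up 53 of the 783 genes (6.77%), against 650 of 19970 (3.25%) among all protein-coding genes. Genes without a symbol made up 55 (7.02%), against 602 (3.01%) of all. Without readthrough records 346 regions held at least 2 TSS and 17 held 3, and none held 4. Without records that lack a symbol as well, the numbers were 340 and 16. Counting starts within 1 kb as 1 promoter left 226 regions (61.6% of the 367) with at least 2 separate promoters, 13 of them with 3. In the remaining 141 regions (38.4%) all starts sat in a single cluster.

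**Figure D1:**
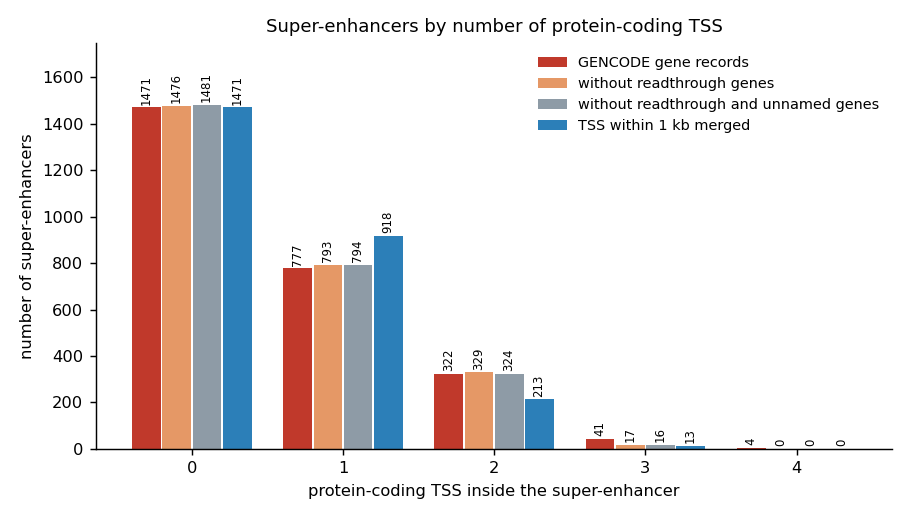
Number of super-enhancers (vertical axis) by the number of protein-coding TSS they hold (horizontal axis) under 4 ways of counting TSS. Bars for 2 TSS stand at 322, 329, 324 and 213, and no region holds 4 TSS once readthrough records are left out or close starts are merged.

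All 4 regions with 4 TSS included a readthrough record. At rank 816 of 2615 by signal, the region at chr14:103539506-103609629 held KLC1, which encodes a kinesin light chain, BAG5, a co-chaperone, COA8, a mitochondrial assembly factor, and the record ENSG00000256500. All 4 starts lay within 1.07 kb of each other, and the region had a signal of 27215 over 70.1 kb. The region at chr19:2261575-2302932 (rank 1140, signal 21737) held OAZ1, an inhibitor of polyamine synthesis, with JSRP1, PEAK3 and the record ENSG00000273734, over 12.7 kb.

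The other pair of regions with 4 TSS carried B-cell transcription factors. POU2F2, the octamer-binding factor of B cells also called OCT2, shared the region at chr19:42137719-42233316 with DEDD2, ZNF526 and the record ENSG00000288671. Its signal was 18135 (rank 1460) over 95.6 kb, and the 4 starts were spread over 35.6 kb, DEDD2 and ZNF526 being a divergent pair. MEF2B, a germinal centre transcription factor, shared the region at chr19:19176337-19199215 with BORCS8, the readthrough record BORCS8-MEF2B and RFXANK, a subunit of the RFX complex that activates MHC class II genes. There the 4 starts fell within 0.46 kb, and the signal of 11945 (rank 2346) was 1.13 times the cutoff. The POU2F2 region therefore sat somewhat below the median rank of 1308 over all 2615 regions, and the MEF2B region far below it. Both hold genes with a named role in B cells.

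The 6 regions with 3 TSS and the highest signal came next. AGPAT3 and TRAPPC10 with an unnamed record had a signal of 61839 (rank 127), SELENOF and HS2ST1 with an unnamed record had 57582 (rank 160), and SORBS3 and PDLIM2 with an unnamed record had 51730 (rank 214). The remaining regions of this group had only named genes. BHLHA15, the plasma-cell factor also called MIST1, was with TECPR1 and BRI3 at a signal of 45518 (rank 290). IFITM3, an interferon-induced membrane protein, was with B4GALNT4 and PKP3 at 44626 (rank 299). GPR179, SOCS7 and ARHGAP23 were together at 39403 (rank 393). Of the 45 regions with 3 or 4 TSS, 16 kept 3 when only named, non-readthrough genes were counted.

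The signal of the 367 regions did not stand apart from that of the others. It ran from 10629 to 120764, with a median of 20902 and quartiles of 14184 and 31395. The median was 19908 in the 777 regions with 1 TSS and 19416 in the 1471 with none, and the quartiles overlapped almost wholly: 14150 to 31664 with 1 TSS and 13940 to 29985 with none. Across all 2615 regions, Spearman's rho between the number of TSS and the signal was 0.034. Among the 262 highest by signal were 32 of 367 (8.72%) with several TSS, 97 of 777 (12.5%) with 1 TSS and 133 of 1471 (9.04%) with none. At 2 times the cutoff the order differed, with 48.8%, 45.7% and 43.1% of each class at or above it. None was among the first 12. At the other end, 17 of the 367 (4.63%) lay within 5% of the cutoff, the last being ATG13 and HARBI1 at rank 2614 with 10629 against a cutoff of 10617.

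Length behaved in the same way. The 367 regions were 10.9 to 398 kb long, with a median of 62.1 kb, against 61.6 kb with 1 TSS and 59.9 kb with none. They had a median of 16 constituent peaks, as had both other classes. Longer regions held more TSS only to a small extent: in 4 length classes of equal size, from short to long, the share with at least 2 was 11.6%, 15.3%, 14.1% and 15.1%, with a rho of 0.054 between length and number of TSS. The median signal of regions with several TSS was above that of regions with 1 TSS in 1 of the 4 classes (median ratio 0.97), and above that of regions with none in 3 of 4 (1.03). With 10 length classes it was above in 5 of 10 in either comparison, with a ratio of 1.00 in both, so no direction held across the classes. Within the 367 regions, signal followed length with a rho of 0.68; signal is a sum over the length, so the measures share it.

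**Figure D2:**
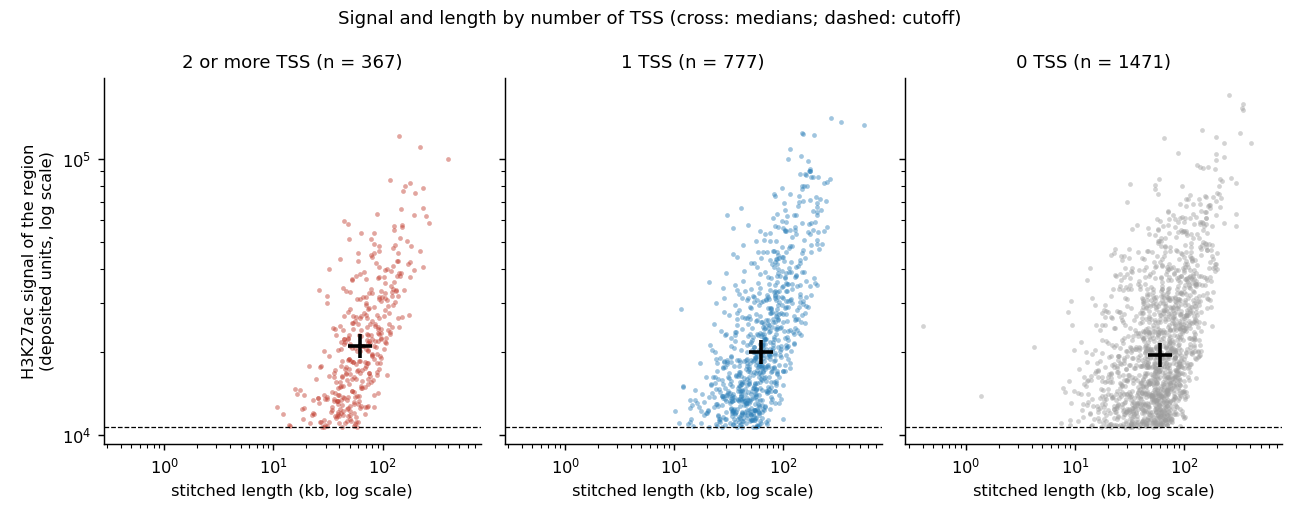
H3K27ac signal (vertical axis, deposited units, log scale) against stitched length (horizontal axis, kb, log scale) for regions with 2 or more, 1 or no protein-coding TSS. Each point is 1 region, crosses are medians (20902, 19908 and 19416 for signal) and the dashed line is the cutoff of 10617; the clouds overlap over most of their range.

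Signal per base pair had similar medians and differed at the upper end. The median was 0.331 per bp in regions with several TSS, 0.343 with 1 and 0.345 with none, but the upper quartile was 0.453, 0.496 and 0.539. Only 18 of the 367 (4.90%) were among the 262 densest regions, against 58 of 777 (7.46%) and 186 of 1471 (12.6%). The highest value of any of the 367 was 1.34 per bp, whereas regions with 1 TSS reached 2.48. Regions without a TSS reached 61.9, in a region of 0.4 kb. The gap to regions without a TSS lay among the short regions: in the shortest of the 4 length classes the medians were 0.465 with several TSS and 0.651 with none, while in the other classes regions with several TSS were at 0.349, 0.290 and 0.268 against 0.335, 0.253 and 0.263.

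The 10 regions with the highest signal among the 367 had values from 66255 to 120764. First was CEP68 and RAB1A at chr2:64994989-65136531, with a signal of 120764 (rank 13 of all, 11.4 times the cutoff) over 141.5 kb. CEP68 is a centrosome linker protein, and RAB1A is a small GTPase of transport from the endoplasmic reticulum to the Golgi. The genes run towards each other and overlap, with starts 74.0 kb apart, and the region covers both whole. GRAMD4 and CERK, the latter a ceramide kinase, followed with 110540 (rank 18) over 218 kb. CDC42EP4 and SDK2 had 99647 (rank 25) in the longest region of the group, 398 kb with 104 constituents, where the starts were 332 kb apart.

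PIM1, a serine/threonine kinase that promotes survival and a known target of aberrant hypermutation in B-cell lymphoma, was in the region at chr6:36998699-37176636 together with FGD2, an exchange factor for CDC42 found in antigen-presenting cells. Its signal was 81602 (rank 51) over 178 kb. The 2 starts lay 165 kb apart on the same strand, FGD2 6.95 kb inside one edge and PIM1 6.48 kb inside the other, so the pair spans nearly the entire region. By contrast CYB5R3 and A4GALT (signal 83578, rank 47) started within 0.43 kb of each other, HAUS8 and MYO9B (79381, rank 60) within 0.15 kb, and TBC1D2B and SH2D7 (76193, rank 65) within 0.084 kb. A4GALT makes the Gb3 glycolipid, also known as the germinal centre B-cell marker CD77, and HAUS8 is a subunit of the augmin complex of the spindle. The last of the 10 were AZIN1 with an unnamed gene (78395, rank 61), FGFR4 and NSD1 (75331, rank 67), NSD1 being a histone H3 lysine 36 methyltransferase, and FAM193A and TNIP2 (66255, rank 104), TNIP2 being an inhibitor of NF-kappaB signalling.

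The 5 densest regions were 10.9 to 47.9 kb long. UPK2 and BCL9L, at chr11:118895708-118940385, had 1.34 per bp over 44.7 kb (signal 59680, rank 139); BCL9L is a co-activator of beta-catenin. SPESP1 and ANP32A had 1.29 per bp over 26.1 kb. CD72, an inhibitory co-receptor of the B-cell receptor, and SIT1, an adaptor of antigen receptor signalling, shared chr9:35623122-35655625 at 1.22 per bp over 32.5 kb, with a signal of 39806 (rank 382) and 10 constituents. NIPAL4 with an unnamed gene had 1.21 per bp, and PITPNM1 and CDK2AP2 had 1.16 per bp in the shortest region of the group, 10.9 kb with 2 constituents. At the low end, DLX4 and DLX3, homeobox genes of the ectoderm and placenta, had 0.150 per bp over 109.5 kb. AQP1 with an unnamed gene had 0.151, AP2S1 and ARHGAP35 had 0.155, ZDHHC19 and SLC51A had 0.156, and VPS26B and NCAPD3 had 0.166. The 5 densest regions held 2 to 10 constituents and the 5 sparsest 18 to 49.

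**Figure D3:**
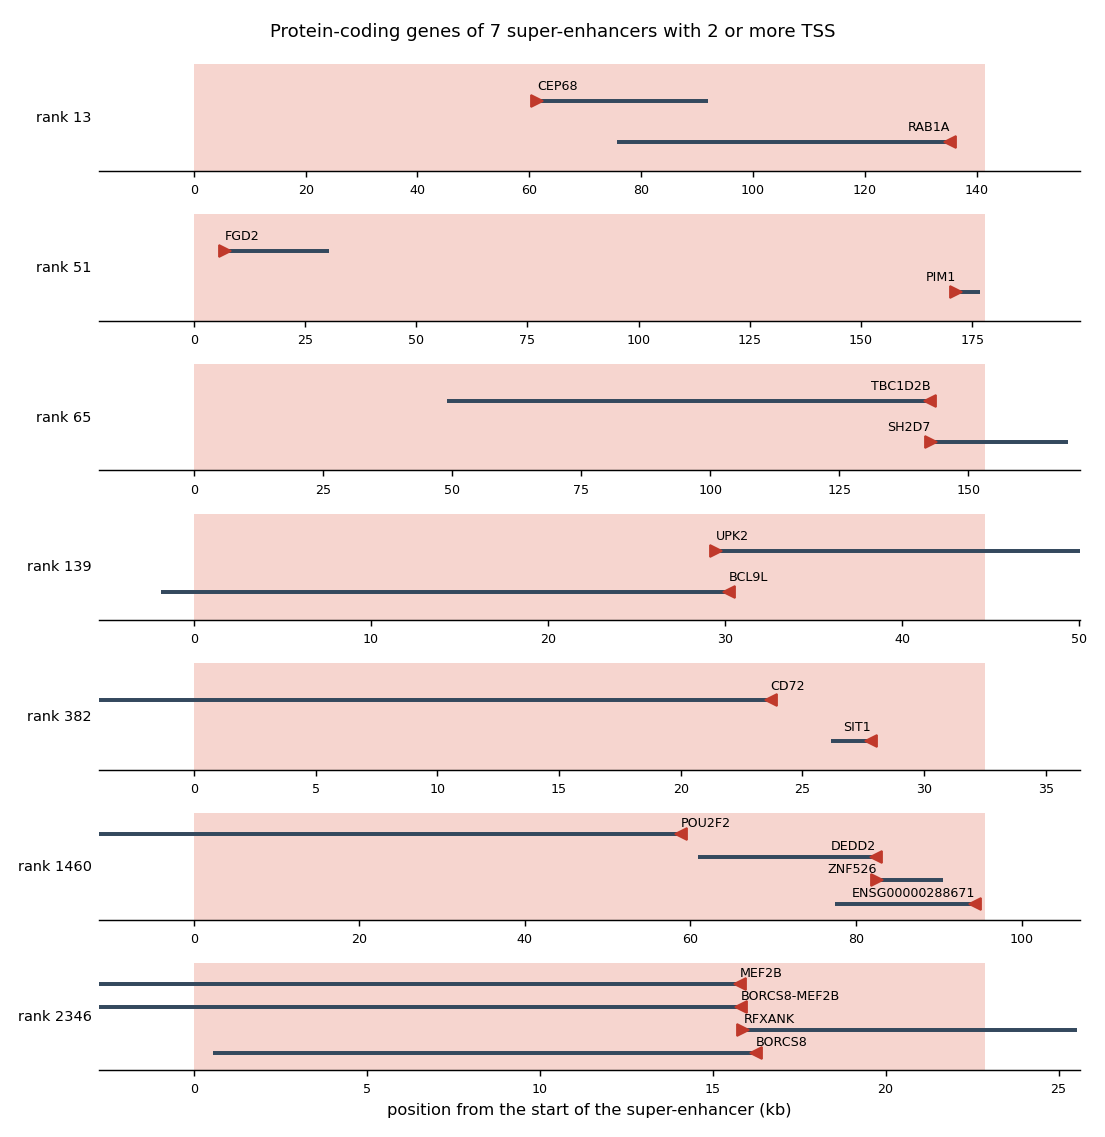
Protein-coding genes of 7 regions with 2 or more TSS, drawn to scale in kb from the start of each region (shaded). Dark lines are genes (cut off where they leave the panel) and arrowheads mark each TSS and its direction. The starts of FGD2 and PIM1 lie 165 kb apart at opposite edges of their region, whereas the 4 starts of the MEF2B region fall within 0.46 kb.

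Few genes of the B-cell lists had a TSS in one of the 367 regions, and the share was near the 3.92% of all protein-coding genes. It was 2 of 44 B-cell transcription factors (4.55%; POU2F2 and MEF2B), 1 of 37 genes of B-cell receptor signalling (2.70%; CD72) and 2 of 22 chromatin regulators mutated in lymphoma (9.09%; KMT2D and NCOR1). None of 27 genes of MHC and antigen presentation, 33 of the immune synapse and costimulation, or 18 of survival and cell death was found there. With regions extended by 2500 bp at each end, 2 of the 33 synapse genes (6.06%) were, against 4.28% of all genes. Regions with a single TSS held 777 of all 19970 genes (3.89%). They held 4 of 27 MHC genes (14.8%), 8 of 33 synapse genes (24.2%), 2 of 18 survival genes (11.1%), 3 of 44 transcription factors (6.82%), 5 of 37 receptor signalling genes (13.5%) and 4 of 22 chromatin regulators (18.2%). RFXANK and PIM1 were not on the lists and are described above with their regions.

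KMT2D, the H3K4 methyltransferase that the study inactivated in other clones, had its own promoter in a super-enhancer of the WT cells. The region at chr12:49022324-49064265 had a signal of 20455 (rank 1238) over 41.9 kb and 10 constituents. The start of KMT2D lay 3.47 kb inside the edge, and 92.0% of the gene was covered. The region counts as one with 2 TSS only through the readthrough record ENSG00000288710, whose start lay 1.75 kb inside the opposite edge. NCOR1, a subunit of a histone deacetylase co-repressor complex, shared chr17:16189111-16268433 with PIGL, an enzyme of GPI anchor synthesis; the signal was 19378 (rank 1337) over 79.3 kb, and the starts were 0.99 kb apart.

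Of the B-cell markers reported here (MS4A1, CD79A, CD79B, PAX5, BCL6, POU2AF1, MME, CD22 and CD38), none had its TSS in any of the 2615 regions. The same held for 92.2% of all protein-coding genes, so the absence is near the general share. The distance from the TSS to the nearest super-enhancer ran from 7.04 kb for CD79B to 95.5 kb for CD22, with a median of 27.9 kb, and 7 of the 9 were within 50 kb. For 9 markers of T cells, myeloid cells, epithelium and liver the range was 31.6 to 499 kb, the median 205 kb, and 1 of 9 (CD247) was within 50 kb. The share of all genes within 50 kb was not computed. BCL6, the master repressor of the germinal centre, was 13.2 kb from the nearest region. The regions were built from peaks away from TSS, and the part this played was not tested.

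Housekeeping genes were represented unevenly. Cytosolic ribosomal protein genes with a TSS in one of the 367 regions included RPS10, RPL6 and RPL36, in regions of low rank: their signals were 11002, 11156 and 16170. RPS10 was counted with the readthrough record RPS10-NUDT3, 2 bp away. RPL6 lay beside PTPN11, a phosphatase of receptor signalling. None of 69 replication-dependent histone genes and none of 24 genes of other tissues was in one. Of 75 mitochondrial ribosomal protein genes, a group chosen after their values were seen, 13 (17.3%) had a TSS in 12 of the regions, against 3.92% of all protein-coding genes, and 5 of the 13 were in a divergent pair within 1 kb. MRPS25 lay in a region with a signal of 38589 (rank 412), whereas MRPL27 had 11486 (rank 2428).

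Among the 367 regions, other loci with immune genes were picked out after their values were seen. WAS, the actin regulator lost in Wiskott-Aldrich syndrome, was with SUV39H1 at a signal of 45635 (rank 287). TICAM1, an adaptor of Toll-like receptors, was with PLIN3 at 45586 (rank 288), and TNFSF14, a ligand of the TNF family, was with complement C3 at 32792 (rank 574). RAC2, a small GTPase of blood cells, was with CYTH4 at 31028 (rank 642). STAP1, an adaptor downstream of the B-cell receptor, was with CENPC at 20252 (rank 1259), and JAK3, a kinase of cytokine receptors, was with INSL3 at 12923 (rank 2161). The cytokine genes IL3 and CSF2, which lie side by side and are best known from activated T cells, shared a region with a signal of 17124 (rank 1568).

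Some neighbours with like gene names shared a region, and those given here were picked out after their values were seen. P2RY2 and P2RY6, receptors for extracellular nucleotides, had a signal of 65576 (rank 105, 147 kb), and the cytidine deaminases APOBEC3G and APOBEC3H had 33221 (rank 559, 45.8 kb). Further cases were MS4A12 and MS4A13 (20600), SULT1A2 and SULT1A1 (20112), EVI2B and EVI2A (17679), DLX4 and DLX3 (16394), PLAAT4 and PLAAT2 (12138), and the trypsinogens PRSS1 and PRSS2 (11195), which lie inside the T-cell receptor beta locus. For copies as alike as SULT1A1 and SULT1A2, or PRSS1 and PRSS2, short reads can be placed in either, which makes these signals less certain.

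The starts inside a region lay close together. In the 367 regions there were 416 pairs of neighbouring TSS, with a median distance of 4.89 kb, against 42.8 kb for the 17611 other neighbouring pairs of the genome that were no farther apart than the widest pair in a region (332 kb). A distance of at most 1 kb was seen in 177 of 416 pairs (42.5%) and in 9.22% of the others. Both starts had to fit into 1 region of limited length, so short distances are favoured by the way the regions were chosen. Without readthrough records the shares were 40.8% of 363 pairs and 7.32%.

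Divergent pairs were the most frequent arrangement at short distance. Of the 177 pairs within 1 kb, 95 (53.7%) were divergent, 49 (27.7%) had genes that faced each other, and 33 (18.6%) ran in tandem. Among the 1623 other pairs of the genome within 1 kb the shares were 44.9%, 27.2% and 27.9%. Tandem starts this close are often readthrough records: without these, 61.5% of 148 pairs in the regions and 56.7% of 1245 elsewhere were divergent. Over all distances the regions held 152 divergent pairs, 100 facing and 164 in tandem.

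**Figure D4:**
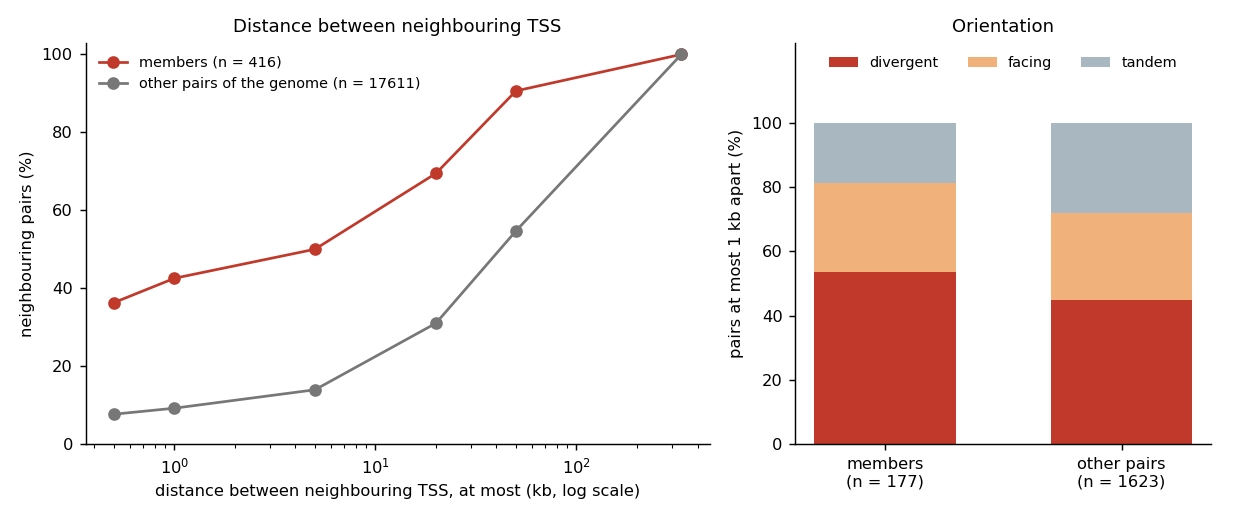
Left, cumulative share of neighbouring TSS pairs (vertical axis, %) by distance (horizontal axis, kb, log scale) for the 416 pairs inside the 367 regions (members) and the 17611 other pairs of the genome. Right, orientation of the pairs at most 1 kb apart, 177 and 1623; divergent pairs are 53.7% of the former and 44.9% of the latter.

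The closest divergent pair was PRKDC and MCM4, 7 bp apart on chromosome 8, in a region of 60.5 kb with a signal of 20902 (rank 1195). PRKDC is the catalytic subunit of the DNA-dependent kinase that joins double-strand breaks, and MCM4 is part of the replicative helicase. MRPL27 and EME1, the latter a subunit of a structure-specific DNA endonuclease, were 13 bp apart with a signal of 11486 (rank 2428). C1orf131 and GNPAT, an enzyme of ether lipid synthesis, were 20 bp apart with 17237 (rank 1562), and PPIL3 and NIF3L1 were 24 bp apart with 16767 (rank 1609). MRPL21 and IGHMBP2, a helicase, and STX10 and IER2, an immediate early gene, were each 28 bp apart. Their signals were 15026 (rank 1817) and 31920 (rank 599), and STX10 and IER2 stood out by density, with 1.04 per bp over 30.7 kb.

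Regions with a divergent pair within 1 kb had a lower median signal than the rest of the 367. It was 17237 (quartiles 13224 and 26171) in these 95 and 21782 (14994 and 32702) in the other 272, and the ranges overlapped widely. They were shorter, with a median of 53.6 against 63.7 kb, and poorer in GC over their whole length, at 44.03% against 48.98%. A split by clusters of starts is not separate from this one, since 2 starts within 1 kb make 1 cluster. Where all starts lay in 1 cluster the median signal was 17108 and the length 51.1 kb, and with 2 or more clusters 23082 and 70.7 kb. Signal per bp went the other way, with medians of 0.345 and 0.324. A region must be longer to hold starts that are farther apart, so the difference in length is partly given by the split. Signal followed length within the 367 regions (rho 0.68), and the part of length in the lower signal was not tested.

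The promoters were rich in GC and CpG. In windows from 250 bases before to 50 after each start, read from hg38, the 783 genes had a median GC content of 63.7% and an observed to expected CpG ratio of 0.79, against 60.3% and 0.70 for all 19970 genes and 63.3% and 0.78 for genes of regions with 1 TSS. The ETS core was found in 162 of 783 windows (20.7%), against 11.97% with 1 TSS and 11.85% of all promoters. A TATA box was found in 5.11%, 8.62% and 10.8%, a GC box in 61.8%, 62.2% and 52.4%, and a CCAAT box in 35.4%, 34.0% and 35.9%. The octamer, the site bound by POU2F2, was in 1.66%, 1.80% and 1.70%.

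The shares of the ETS core, the TATA box and CpG-rich windows differed with pairing. They also differed between the regions and the rest of the genome among genes of the same pairing. The rest takes in genes of regions with 1 TSS, which were not split by pairing. Among the 190 genes of the regions that were in a divergent pair within 1 kb, 36.3% had an ETS core, and among the other 593 genes 15.7%. Outside the 367 regions the shares were 26.1% of 1458 paired genes and 10.3% of 17729 others. A window counted as CpG-rich here when its ratio was above 0.6 and its GC content above 50%, which held for 95.8% of the paired and 58.2% of the other genes in the regions, and for 85.3% and 52.0% outside. Without the split by pairing, 67.3% of genes of the 367 regions and 64.7% of genes of regions with 1 TSS were CpG-rich. A TATA box was seen in 1.053% of paired genes in the regions and in 5.56% of those outside. Among the other genes it was seen in 6.41% in the regions and in 11.5% outside. The windows of a close pair overlap and share matches, so the genes are not independent counts.

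**Figure D5:**
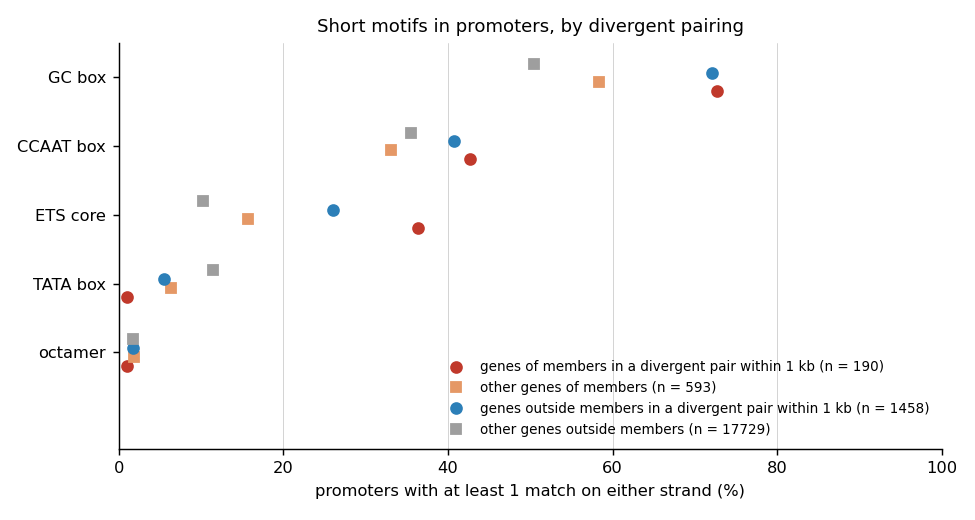
Share of promoter windows (horizontal axis, %) with at least 1 match to each of 5 short motifs (vertical axis), for genes in a divergent pair within 1 kb (circles) and other genes (squares), inside and outside the 367 regions (members). The ETS core runs from 10.3% of the other genes outside to 36.3% of paired genes inside, while the octamer stays under 2% in every set.

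The 367 regions lay in gene-rich surroundings. Apart from their own starts, the 1 Mb window around a region held a median of 14 protein-coding TSS, against 12 around regions with 1 TSS and 8 around regions with none. Chromosome 19, which has 25.3 protein-coding genes per Mb, had the highest share: 30 of its 86 super-enhancers (34.9%) held several TSS. Chromosome 11 followed with 35 of 145 (24.1%) at 9.79 genes per Mb, then chromosome 14 with 21 of 100 (21.0%) at 6.80. The lowest were chromosome 10 with 7 of 131 (5.34%) at 5.48 and chromosome 6 with 10 of 152 (6.58%) at 6.18.

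Chromosome 6 carries the MHC and the main histone cluster, where protein-coding genes are packed closely. None of the 27 genes of the MHC list and none of the 69 histone genes was in one of the 367 regions, against 3.92% of all protein-coding genes. Both lists also hold genes on other chromosomes, such as B2M, CD74, CIITA and the histone gene H4C16, so the counts do not describe chromosome 6 alone. In lists this short, a share of 3.92% would be only a few genes. Off the lists, C6orf136 and DHX16 in the MHC shared one of the 367 (signal 13936, rank 1976), picked out after its values were seen. In regions with 1 TSS were HLA-DQA1 (signal 44108, rank 307), HLA-DMB (25282, rank 920), HLA-C (13845, rank 1995) and HLA-DOA (11797, rank 2377). In ROSE, avoiding TSS goes with a step that can return a stitched region to its single peaks when it spans several gene starts, and the part of this step in the counts was not tested.

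In sequence, the regions were richer in GC and in exons. Choosing regions by the number of TSS they hold favours exons and bases near a TSS, and its part in GC was not tested. The median GC content was 48.2% with several TSS, 46.9% with 1 and 44.6% with none. Exons made up 12.8% of all bases of the 367 regions, 9.62% with 1 TSS and 6.0% with none. Introns made up 66.2%, 63.3% and 69.8%. Bases within 2500 bp of a protein-coding TSS were 10.8% of the regions with several TSS and 6.66% of those with 1; peaks near a TSS were left out as constituents, but these bases count towards the length and the signal of a region.

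The genes held by the regions were not long. Their median length was 26.6 kb, close to the 27.5 kb of all protein-coding genes, whereas genes with the only TSS of a region had 41.8 kb. Of the 783 genes, 429 (54.8%) lay wholly within the region, and a start was at a median of 13.7 kb from the nearest edge. A lncRNA TSS was also present in 171 of the 367 regions (46.6%), in 420 of 777 with 1 protein-coding TSS (54.1%) and in 522 of 1471 with none (35.5%). Another super-enhancer lay within 50 kb of 41.1% of the 367, against 46.5% and 45.5%. Together the 367 regions covered 27.4 Mb with 7223 constituent peaks and held 13.8% of the signal of all 2615, close to their 14.0% share of the number.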

How the data were processed

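CUT&RUN for H3K27ac in WT OCI-Ly7 cells gave the single table used here. As the study's methods state, reads were processed on hg38 by the nf-core cutandrun pipeline against an IgG control. SEACR called peaks, MACS2 gave the summits, and the authors then ran ROSE without TSS of non-coding RNA. The deposited signal column is the ROSE signal summed over each stitched region, for 1 merged WT file of 2 replicates. The file header gives a stitching distance of 12500 bp, exclusion of peaks near TSS and a cutoff of 10617, but no unit, so values are relative within the table. The other deposited columns used hold the number of constituents, their summed length and the rank. Read depth per region is unknown. The submitters' processing notes also list DiffBind 3.6.1 and DESeq2, which made no value used here. Number of columns not matched to a sample: 0.

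TSS, exons and promoter sequence came from GENCODE version 44 and hg38. Assignment of TSS to regions was tested on simulated regions. Regions were compared by medians, quartiles, counts and Spearman's rho as descriptions, with no test, with pandas 2.3.3 and numpy 2.4.6 (Python 3.11.15; scipy 1.17.1, matplotlib 3.10.9). Regions named were the 10 with most TSS, the 10 of highest signal, 5 densest and 5 sparsest per bp, those with a gene of the B-cell lists, and the 5 closest divergent pairs, where a tie added 1; others are said to be chosen after their values were seen. Some named items are not reported here, and no sequence from chromosome 8 was printed. The members, lists and rules were chosen with earlier results of these data known. Alternatives used 2 times the cutoff, merging within 1 kb, leaving out readthrough or unnamed records, extending regions by 2500 bp, and canonical transcript starts.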

Additional observations from a re-analysis of the deposited data

How the results depend on the processing

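The number of regions with 2 or more TSS was 367. It was 346 without readthrough genes, 340 without unnamed genes as well (an alternative chosen after seeing the data), 345 with canonical starts (328 shared with the 367) and 395 with regions extended by 2500 bp. Merging starts within 1 kb gave 226 regions with a median signal of 23082 and a length of 70.7 kb. A signal of at least 2 times the cutoff left 179, with medians of 31503, 91.1 kb, 0.370 per bp and 25 constituents; this follows from keeping the strongest regions. Divided by summed constituent length instead of region length, the median was 2.73 per bp, since constituents cover a small part of a region. On the gene strand alone, motif shares were 3.19% for the TATA box, 18.6% for the CCAAT box, 41.6% for the GC box and 10.9% for the ETS core, since 1 strand is searched instead of both. Of 49 alternative values over 21 results, the other 36 moved by less than their counting interval or stayed within 1.5 times a count. This rule is rough, since regions of 1 pooled sample are no replicates and such an interval is no replicate error. It also passed the synapse list, which went from 0% to 6.06% (2 of 33 genes) with extended regions. The pooled column has no replicates, so no library could be left out and no difference between region classes was tested. No paired analysis was possible because the replicates were merged before deposit. Regions below the cutoff were not analysed here, so the ranges start at it. H3K27ac at a promoter and at an enhancer inside 1 region cannot be told apart from a region's sum.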
